A study of Rattus norvegicus with 30 samples.

Results

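The genes described here are 10 genes of the vascular endothelium: Pecam1, Cdh5, Tie1, Tek, Esam, Kdr, Flt1, Egfl7, Emcn and Cldn5. They were found by matching the Entrez Gene identifiers of the file to these rat symbols, and all 10 were present among the 17322 genes listed. Testes of Wistar Han rats were sampled in vivo at 6 ages, 8.5 and 14.5 days postpartum (dpp), then 24.5 and 30.5 dpp, and last 36.5 and 53.5 dpp, while pieces of 8.5 dpp testis were kept in culture to day 6 (D6), day 16 (D16), day 22 (D22) or day 28 (D28). The explants, 6 to a testis, lay on agarose at the boundary of medium and gas at 34 °C, in αMEM with knock-out serum replacement, retinol and vitamin E. No blood flowed through them, and the necrotic centre of an explant was cut away before RNA was taken. Each cultured library pooled explants of several males, and 3 libraries were made per group. A 14.5 dpp library, marked as an outlier by its label and listed at 0 for all genes, was left out, so 14.5 dpp rests on 2 testes and the whole comparison on 29 libraries. In nominal age, D6 matched 14.5 dpp, D16 matched 24.5 dpp, D22 matched 30.5 dpp and D28 matched 36.5 dpp.

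Endothelial cells line blood and lymphatic vessels. They are held together by homophilic adhesion molecules at their junctions, and their growth and quiescence are set by receptor tyrosine kinases: the VEGF receptors, which drive sprouting and survival, and the Tie receptors, which respond to angiopoietins and steady the mature vessel. In the testis the vessels run between the seminiferous tubules, in the interstitium, and Sertoli and Leydig cells supply them with VEGF. Transcription factors of the ETS family, which bind a GGAA core, take part in switching on most endothelial genes.

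The start-site regions of the genes are shown because the members did not behave alike in culture. Kdr and Tie1 were above every in vivo library in all cultured libraries, and Emcn in none. The share of all genes that lay above in this way was not counted. RefSeq windows (build GRCr8) were given for 6 of the 10 genes, and the bases upstream of the annotated gene are printed 5′ to 3′ in the direction of transcription. The letters GGAAG or their reverse complement CTTCC, found in many ETS sites, are in capitals. Other GGAA or TTCC letters, which Kdr and Emcn also hold, were not searched for and stay in lower case.
Kdr (chr14:32571813-32572030, plus strand): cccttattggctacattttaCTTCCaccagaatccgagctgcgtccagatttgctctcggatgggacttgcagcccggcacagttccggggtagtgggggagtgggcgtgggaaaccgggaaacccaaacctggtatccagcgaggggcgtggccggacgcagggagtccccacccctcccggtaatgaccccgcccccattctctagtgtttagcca
Tie1 (chr5:137305048-137305231, minus strand): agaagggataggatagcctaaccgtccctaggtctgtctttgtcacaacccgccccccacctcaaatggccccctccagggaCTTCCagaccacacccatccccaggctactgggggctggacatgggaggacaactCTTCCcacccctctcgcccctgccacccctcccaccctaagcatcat
Emcn (chr2:228564289-228564444, plus strand): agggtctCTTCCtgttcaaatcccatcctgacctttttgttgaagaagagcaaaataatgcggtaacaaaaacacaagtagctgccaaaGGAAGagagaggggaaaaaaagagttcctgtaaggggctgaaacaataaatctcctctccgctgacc

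In the whole windows, from 250 bases before to 50 bases after the start, GGAAG or CTTCC was present in 5 of the 6 genes (Kdr, Tie1, Flt1, Egfl7 and Emcn, but not Cldn5) and in 70.1% of all 33469 windows of the table. The letters ACGTG on either strand, the core of the hypoxia response element, were in none of the 6, against 19.3% of all windows. TATAAA on either strand was in 1, that of Flt1, against 14.2%. The ETS letters in Kdr and Emcn, which went opposite ways in the long cultures, are a description of these windows and of nothing bound there.

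All 10 genes had a value above 0 in all 29 libraries. Values are FPKM, fragments scaled to transcript length and to the mapped reads of the library, so levels can be compared between genes. At 8.5 dpp Cdh5 (30.8 FPKM) and Cldn5 (28.4) were the most abundant members and Flt1 (0.601) the least. In 28-day explants Cdh5 (25), Pecam1 (23.6) and Cldn5 (22.2) led, with wide overlap between their libraries, and Emcn (0.654) was lowest. The number of endothelial cells, the RNA of these genes per cell and their expression in other cells cannot be told apart in a bulk sample. This holds for every difference below. The paper lists Kdr in spermatids, Sertoli cells and Leydig cells as well as in blood vessels. Pecam1, Tie1 and Kdr are on a list that the study drew from these same samples, so their direction is not independent evidence.

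**Figure D1:**
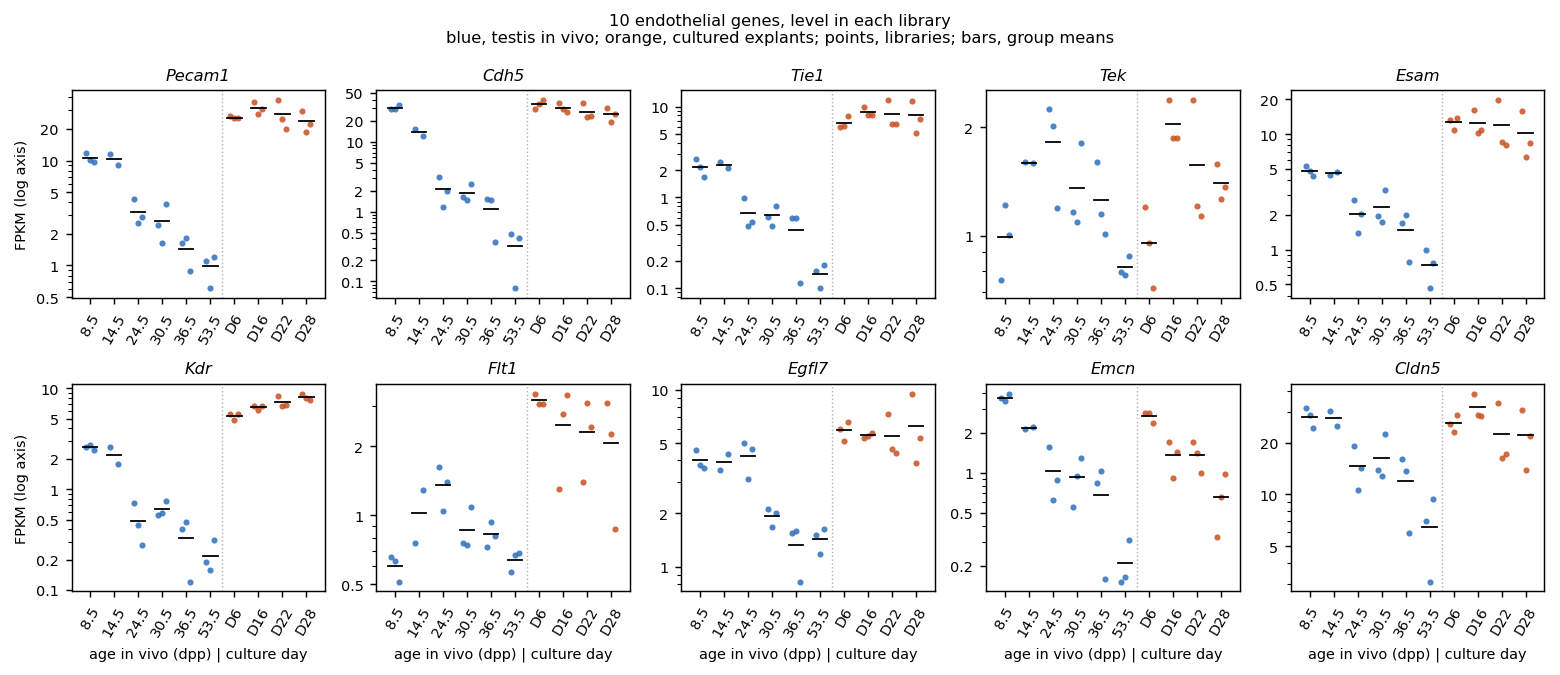
FPKM (log axis) of the 10 endothelial genes in each of the 29 libraries, by age in vivo (blue, dpp) and culture day (orange); points are libraries and bars group means. Pecam1, Tie1, Esam and Kdr of all 12 cultured libraries lie above all 17 in vivo libraries, while Emcn of none does. The share of all genes for which this holds was not counted, so it only describes these genes.

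Pecam1 encodes CD31, the adhesion molecule most used to mark endothelium in sections, which platelets and some leukocytes also carry. It had 11.7, 10.1 and 9.76 FPKM at 8.5 dpp and 11.5 and 9.12 at 14.5 dpp, then 4.32, 2.53 and 2.9 at 24.5 dpp, 2.44, 1.65 and 3.86 at 30.5 dpp, 1.62, 1.81 and 0.884 at 36.5 dpp and 1.12, 0.608 and 1.22 at 53.5 dpp. In culture it was 26.5, 25.2 and 25.4 at D6, 35.8, 28 and 31.1 at D16, 37.9, 24.8 and 19.9 at D22 and 29.9, 18.8 and 22.2 at D28. Every cultured library exceeded every testis, the lowest explant at 18.8 FPKM against the highest testis at 11.7. The gene rose already in the first 6 days (log2 fold change 1.21, SE 0.09, adjusted p = 0.000101) and was still higher than at the start at D28 (log2 fold change 1.07, SE 0.17, adjusted p = 0.00216).

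Cdh5 encodes VE-cadherin, the cadherin of endothelial adherens junctions. Its values were 29.8, 29.4 and 33.2 FPKM at 8.5 dpp, 15.2 and 12.2 at 14.5 dpp, 3.15, 1.15 and 1.94 at 24.5 dpp, 1.59, 1.44 and 2.49 at 30.5 dpp, 1.49, 1.44 and 0.369 at 36.5 dpp and 0.474, 0.0798 and 0.416 at 53.5 dpp. Explants had 29.7, 34.2 and 39.8 at D6, 36.3, 29.5 and 26.9 at D16, 35.4, 22.8 and 23 at D22 and 30.8, 18.8 and 25.3 at D28. Cultured tissue thus overlapped the 8.5 dpp testes from which it came, and neither D6 (log2 fold change 0.15, SE 0.12, adjusted p = 0.329) nor D28 (log2 fold change -0.32, SE 0.18, adjusted p = 0.168) was called against them. In vivo the gene fell between 8.5 and 14.5 dpp (log2 fold change -1.12, SE 0.13, adjusted p = 0.00502), as the only member called in that step. D6 was therefore higher than the 14.5 dpp testes of the same nominal age (log2 fold change 1.27, SE 0.17, adjusted p = 0.00913) while its libraries overlapped those of 8.5 dpp.

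Esam, an immunoglobulin-type adhesion molecule of tight junctions, had 5.26, 4.78 and 4.34 FPKM at 8.5 dpp, 4.44 and 4.72 at 14.5 dpp and between 0.463 and 3.27 in the 12 older testes. Its explants held 13.2, 11 and 13.9 at D6, 16.1, 10.2 and 10.9 at D16, 19.8, 8.55 and 7.98 at D22 and 15.8, 6.4 and 8.37 at D28, all above every testis. The first library of D22 and of D28 stood well above the others of its day. Esam rose over the first 6 days (log2 fold change 1.24, SE 0.11, adjusted p = 0.000215). At D28 against 8.5 dpp its ratio of medians, 1.75, was under the limit of 2 that a call needed, and the adjusted p was 0.0386.

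Cldn5, the claudin of endothelial tight junctions, was not called against its starting level. It was 31.9, 29 and 24.2 FPKM at 8.5 dpp, 30.6 and 25.1 at 14.5 dpp, 19.1, 10.6 and 14.2 at 24.5 dpp, 13.8, 12.8 and 22.5 at 30.5 dpp, 16.1, 13.6 and 5.92 at 36.5 dpp and 6.97, 3.09 and 9.37 at 53.5 dpp. The explants had 25.5, 23.1 and 29 at D6, 38.6, 29 and 28.7 at D16, 33.8, 16.3 and 17.2 at D22 and 31, 13.8 and 21.7 at D28. Libraries of every culture day overlapped those of 8.5 dpp or of 14.5 dpp, and the D28 value differed from 8.5 dpp by -0.40 on the log2 scale (SE 0.27, adjusted p = 0.249). Among the 9 comparisons of explants with testes, it was called in 1, D16 against 24.5 dpp (log2 fold change 1.11, SE 0.22, adjusted p = 0.00345), a call lost without the second or the third 24.5 dpp testis (log2 fold change 0.91 and 1.10).

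Kdr encodes VEGFR2, the main signalling receptor for VEGF-A. In vivo it had 2.62, 2.74 and 2.47 FPKM at 8.5 dpp, 2.61 and 1.76 at 14.5 dpp, 0.728, 0.438 and 0.28 at 24.5 dpp, 0.553, 0.584 and 0.764 at 30.5 dpp, 0.401, 0.47 and 0.12 at 36.5 dpp and 0.188, 0.156 and 0.311 at 53.5 dpp. In explants it was 5.52, 4.83 and 5.56 at D6, 6.62, 6.15 and 6.65 at D16, 8.36, 6.7 and 6.78 at D22 and 8.86, 8.01 and 7.74 at D28. Its libraries of a culture day lay close together, and its group mean was higher on each later day of sampling. It was called higher in every comparison of explants with testes, with its largest adjusted p among those with 14.5 dpp at D6 (log2 fold change 0.99, SE 0.16, adjusted p = 0.0143) and its smallest at D28 (log2 fold change 1.54, SE 0.13, adjusted p = 4.83e-05). Without the first or the third D6 library its ratio of medians at D6 against 8.5 dpp went under 2, with log2 fold changes of 0.78 and 0.77. Against the starting tissue, 28-day explants had a ratio of medians of 3.06 (log2 fold change 1.35, SE 0.09, adjusted p = 5.95e-05). The step from D16 to D28 was 0.30 on the log2 scale, with libraries that did not overlap but an adjusted p of 0.207.

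Flt1 encodes VEGFR1, which binds VEGF-A and placental growth factor and, in its soluble form, acts as a decoy. It was the least abundant member at the start, with 0.66, 0.632 and 0.512 FPKM at 8.5 dpp, and had 0.761 and 1.29 at 14.5 dpp, 1.62, 1.04 and 1.4 at 24.5 dpp, 0.755, 0.741 and 1.09 at 30.5 dpp, 0.729, 0.939 and 0.815 at 36.5 dpp and 0.567, 0.671 and 0.686 at 53.5 dpp. It was 3.39, 3.06 and 3.06 at D6, 1.3, 2.78 and 3.36 at D16, 1.4, 3.09 and 2.41 at D22 and 3.08, 2.25 and 0.876 at D28. The 3 libraries of D6 were close together and above every testis, while each later day held 1 library within the in vivo range. Flt1 had the largest rise of the members over the first 6 days (log2 fold change 1.38, SE 0.08, adjusted p = 4.17e-05). Its later calls were less firm: at D28 against 8.5 dpp the log2 fold change was 0.87 with an adjusted p of 0.0311, and leaving out any 1 of 5 of the 6 libraries took the adjusted p to between 0.0638 and 0.092. The call against 36.5 dpp (adjusted p = 0.0451) was likewise lost without any 1 of 5 of the 6 libraries, at adjusted p from 0.0824 to 0.125, and at pseudocount 0.1, with no filter on low values and with either scaling (quantile normalization 0.41, adjusted p = 0.142, and centring 0.20, adjusted p = 0.497).

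Tie1 is the orphan partner of the angiopoietin receptor Tek (Tie2), and the pair moved apart. Tie1 had 2.65, 2.17 and 1.68 FPKM at 8.5 dpp, 2.45 and 2.11 at 14.5 dpp, 0.987, 0.49 and 0.54 at 24.5 dpp, 0.613, 0.49 and 0.796 at 30.5 dpp, 0.593, 0.601 and 0.115 at 36.5 dpp and 0.156, 0.1 and 0.178 at 53.5 dpp. Cultured tissue held 5.94, 6.07 and 7.87 at D6, 9.94, 8.06 and 8 at D16, 11.9, 6.45 and 6.41 at D22 and 11.6, 5.14 and 7.3 at D28, again above all testes. It was called higher in every comparison of explants with testes, including D6 against 8.5 dpp (log2 fold change 1.27, SE 0.15, adjusted p = 0.000576) and D28 against 8.5 dpp (log2 fold change 1.46, SE 0.26, adjusted p = 0.00344).

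Tek itself stayed between 0.716 and 2.38 FPKM throughout. It had 0.753, 1.22 and 1 FPKM at 8.5 dpp, 1.6 and 1.59 at 14.5 dpp, 2.24, 2.01 and 1.2 at 24.5 dpp, 1.16, 1.09 and 1.81 at 30.5 dpp, 1.6, 1.15 and 1.01 at 36.5 dpp and 0.793, 0.777 and 0.881 at 53.5 dpp. In explants it was 1.2, 0.958 and 0.716 at D6, 2.38, 1.86 and 1.86 at D16, 2.37, 1.21 and 1.13 at D22 and 1.58, 1.27 and 1.37 at D28. No comparison of explants with testes called it, and the same held for each step in vivo. From D6 to D16 its libraries did not overlap and it was 0.63 higher on the log2 scale (SE 0.12, adjusted p = 0.0175), with a ratio of medians of 1.94, just under the limit of 2.

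Egfl7 encodes a matrix-bound protein that endothelial cells secrete as they form tubes. Its testes had 4.58, 3.75 and 3.63 FPKM at 8.5 dpp, 3.51 and 4.35 at 14.5 dpp, 4.99, 3.14 and 4.6 at 24.5 dpp, 2.12, 1.69 and 2.01 at 30.5 dpp, 1.54, 1.6 and 0.82 at 36.5 dpp and 1.5, 1.18 and 1.63 at 53.5 dpp. Its explants had 5.98, 5.17 and 6.54 at D6, 5.37, 5.51 and 5.68 at D16, 7.33, 4.64 and 4.41 at D22 and 9.51, 3.84 and 5.32 at D28. It was not called in the steps up to 24.5 dpp and fell in the following one, to 30.5 dpp (log2 fold change -0.82, SE 0.17, adjusted p = 0.00415), where it was the only member called. Explants were not called against 8.5 dpp (D6: adjusted p = 0.014, ratio of medians 1.59) and were higher than the 30.5 and 36.5 dpp testes, at D28 against 36.5 dpp by 1.58 on the log2 scale (adjusted p = 0.00135).

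Emcn encodes endomucin, a sialomucin of capillary and venous endothelium, and was the member that fell in culture. It had 3.63, 3.48 and 3.94 FPKM at 8.5 dpp, 2.12 and 2.2 at 14.5 dpp, 1.57, 0.619 and 0.885 at 24.5 dpp, 0.556, 0.941 and 1.29 at 30.5 dpp, 0.842, 1.02 and 0.159 at 36.5 dpp and 0.15, 0.165 and 0.309 at 53.5 dpp. Explants held 2.81, 2.82 and 2.35 at D6, 1.7, 0.904 and 1.44 at D16, 1.7, 1.41 and 0.987 at D22 and 0.325, 0.651 and 0.985 at D28. All libraries of D16, D22 and D28 lay below all of 8.5 and 14.5 dpp, and D28 was lower than 8.5 dpp (log2 fold change -1.52, SE 0.15, adjusted p = 0.000286) and than 14.5 dpp (log2 fold change -0.95, SE 0.20, adjusted p = 0.00457). Against the 36.5 dpp testes, which were low as well, the difference was 0.00 on the log2 scale (SE 0.24, adjusted p = 0.992).

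Against the 8.5 dpp testes, the tissue that was put into culture, 5 of the 10 members were called higher at D6 (Pecam1, Tie1, Esam, Kdr and Flt1) and none lower, where 16.3% of all genes tested were called and 9.89% were called higher. At D28, 4 were higher (Pecam1, Tie1, Kdr and Flt1) and 1 lower (Emcn), with 23.6% of all genes called, 13.2% higher and 10.5% lower. The median log2 fold change of the members was 0.64 at D6 and 0.66 at D28, beside 0.05 and 0.03 over all genes tested. Both comparisons share the 8.5 dpp libraries.

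With the 14.5 dpp testes, the reference of the study, 6 members were called higher at D6 (Pecam1, Cdh5, Tie1, Esam, Kdr and Flt1; 5.57% of all genes called higher), 4 at D16 (Pecam1, Cdh5, Tie1 and Kdr; 6.35%) and 3 at both D22 and D28 (Pecam1, Tie1 and Kdr; 7.18% and 7.58%). Emcn was the 1 member called lower, at D28, where 5.93% of all genes were. In either direction, 7.94%, 11.7%, 12.6% and 13.5% of all genes were called in these 4 comparisons. These 4 comparisons share 2 control testes, and they hung on them: without the second 14.5 dpp testis 1 member was called at each of D16, D22 and D28, Kdr, and without the first the 3 calls of Tie1 on these days were lost too. The call of Emcn was lost without either of them or without the first D28 library (log2 fold change from -0.97 to -0.80). At D6 the call of Kdr was lost without the first or the third D6 library, and that of Flt1 without the first, while all 6 members stayed positive. Leaving out the first libraries of D22 and D28 together took Pecam1 at D28 to a log2 fold change of 0.93 (adjusted p = 0.00515) and a ratio of medians under 2, and brought a call of Esam at D16. Cdh5 and Esam had adjusted p of 0.0242 and 0.0982 at D28, with ratios of medians of 1.84 and 1.83.

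Against testes of the same nominal age, beside the 6 calls at D6 against 14.5 dpp given above, 6 members were called higher at D16 against 24.5 dpp (Pecam1, Cdh5, Tie1, Esam, Kdr and Cldn5), 7 at D22 against 30.5 dpp and 7 at D28 against 36.5 dpp (in both, Pecam1, Cdh5, Tie1, Esam, Kdr, Flt1 and Egfl7), and none was lower. Of all genes tested, 43.6%, 65% and 70.3% were called, and 25.3%, 42.1% and 46.7% were called higher. At D28 against 36.5 dpp the log2 fold changes were 3.65 for Cdh5, 3.33 for Pecam1, 2.80 for Kdr and 2.61 for Tie1. The ratios of medians were 17.6 for Cdh5, 13.7 for Pecam1 and 12.3 for Tie1. For Kdr the medians were 8.01 FPKM at D28 and 0.401 at 36.5 dpp. The members' median log2 fold change there was 1.85, beside 0.64 over all genes. Centring each library on its median gene lowered that overall median by 0.475 and kept 6 of the 7 calls, Flt1 being lost. Tek (-0.38, adjusted p = 0.0141) and Emcn (-0.47, adjusted p = 0.0865) turned below 0. Neither was called, Tek because it missed the fold limit, which was taken on the medians of the FPKM before centring.

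**Figure D2:**
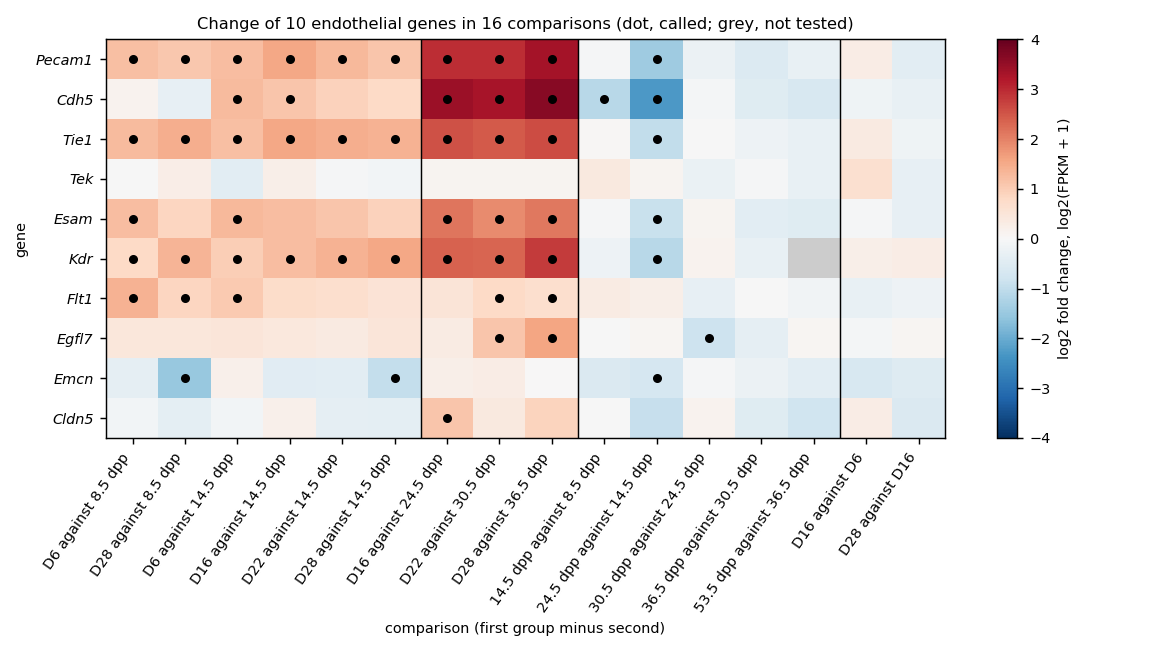
Log2 fold change, on the log2(FPKM + 1) scale, of the 10 endothelial genes (rows) in 16 comparisons (columns, first group minus second); red is higher, blue lower, a dot marks a call and grey a gene not tested. Kdr and Tie1 carry a dot in all 9 comparisons of explants with testes, Tek in none, and Emcn was called lower in D28 against 8.5 and 14.5 dpp.

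In vivo, most falls of the endothelial genes came between 14.5 and 24.5 dpp. In this step 6 members were called lower (Pecam1, Cdh5, Tie1, Esam, Kdr and Emcn) and none higher, with 35.6% of all genes called and 21.1% called lower. Cdh5 had the steepest fall (log2 fold change -2.30, SE 0.29, adjusted p = 0.00221), followed by Pecam1 (log2 fold change -1.42, SE 0.22, adjusted p = 0.00394). Tek, Flt1 and Egfl7 differed by 0.10, 0.22 and 0.08, with adjusted p from 0.343 to 0.769. Without the first 14.5 dpp testis the count was 2. The call of Emcn (log2 fold change -0.67, SE 0.22, adjusted p = 0.0426) held under 6 of 14 alternatives and was lost at pseudocount 0.1, with no filter on low values, with quantile normalization, and without either 14.5 dpp testis or without the second or the third 24.5 dpp testis (adjusted p from 0.0529 to 0.155). Over the same step the summed FPKM of 10 germ cell genes went from 199.7 (range 114 to 285) to 1221 (range 1175 to 1297), and its part in the falls was not tested.

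Other in vivo steps held few calls. From 8.5 to 14.5 dpp 1 member was called, Cdh5, lower (15.7% of all genes called, 6.89% lower), and from 24.5 to 30.5 dpp 1, Egfl7, also lower (39%, 25.5% lower). Each call rested on 1 testis: the log2 fold change of Cdh5 was -0.97 (adjusted p = 0.0156) without the second 14.5 dpp testis, and that of Egfl7 -0.72 (adjusted p = 0.0172) without the first 24.5 dpp testis, with ratios of medians that no longer reached the limit. No member was called by limma from 30.5 to 36.5 dpp (7.54% of all genes), where none had an unadjusted p under 0.05. From 36.5 to 53.5 dpp none of the 9 tested was called (7.86%), 2 had an unadjusted p under 0.05 (Cdh5 and Tek), and Kdr was under the limit on low values. The third 36.5 dpp testis was below its group mean for all 10 members, by a median of -0.35 on the log2 scale, and 4 members were called in this last step without it.

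Within culture, no member was called by limma from D6 to D16 (3.3% of all genes called) or from D16 to D28 (0.215%). An unadjusted p under 0.05 was found for 5 members in the first step, with Pecam1, Tie1, Tek and Kdr higher and Emcn lower, and for 3 in the second, with Kdr higher and Tek and Emcn lower. Emcn had an adjusted p of 0.0248 from D6 to D16, with a ratio of medians of 0.514.

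The libraries of the later cultures were uneven. The first library of D22 and the first of D28 were above their group mean for 9 of the 10 members, by a median of 0.41 and 0.42 on the log2 scale. The exceptions were Flt1 at D22 and Emcn at D28: in the first D28 library Emcn was 0.325 FPKM, the lowest of all explants, while the other 9 members were at their highest of that day. In vivo, the first 24.5 dpp and the third 30.5 dpp testis were high for all 10 members, by medians of 0.28 and 0.27. Libraries of D6 were the most alike of the cultured groups, with medians from -0.07 to 0.10.

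The spans of age from 14.5 to 36.5 dpp in vivo and from D6 to D28 in culture are equal and share no library, so the courses could be tested against each other. The difference, (D28 minus D6) minus (36.5 minus 14.5 dpp), was called for 6 of 10 members. All 6 were called higher, which here means a positive difference. Of all genes, 76.5% were called and 50.9% were called higher. A positive difference is not by itself a rise in culture: Cdh5 had 29.7, 34.2 and 39.8 FPKM at D6 and 30.8, 18.8 and 25.3 at D28. The difference was 2.38 for Cdh5 (SE 0.37, adjusted p = 0.000198), 2.08 for Pecam1 (adjusted p = 6.87e-05), 1.80 for Kdr (adjusted p = 1.75e-05) and 1.40 for Tie1 (adjusted p = 0.00554). Egfl7 (1.09, adjusted p = 0.0236) and Tek (0.51, adjusted p = 0.0281) completed the list. With libraries centred on their median, which lowered the median of all genes by 0.511, the split of called members went from 6 higher and 0 lower to 4 higher and 2 lower: Tek and Egfl7 were lost, and Flt1 (-0.89, adjusted p = 0.0427) and Emcn (-0.72, adjusted p = 0.0475) were called lower.

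Ratios taken within a library set the members against each other in the same tissue. Emcn to Cdh5 was 0.119 ± 0.0018 (SD, n = 3) at 8.5 dpp and 0.028 ± 0.0153 at D28, and in vivo it went the other way, to 0.569 ± 0.141 at 36.5 dpp. Kdr to Cdh5 went from 0.0852 ± 0.00976 at 8.5 dpp to 0.156 ± 0.026 at D6 and 0.34 ± 0.0743 at D28, and to 0.307 ± 0.0327 at 36.5 dpp. Tie1 to Tek was 2.32 ± 1.04 at 8.5 dpp, 5.59 ± 1.66 at D28 and 0.336 ± 0.206 at 36.5 dpp. Flt1 to Kdr was 0.6 ± 0.0444 at D6 and 0.247 ± 0.121 at D28 against 3.54 ± 2.82 at 36.5 dpp. Cldn5 to Pecam1 was 2.69 ± 0.195 at 8.5 dpp, 8.04 ± 1.67 at 36.5 dpp and 0.917 ± 0.159 at D28, with all cultured libraries below all testes. These ratios are given without a test. Those of the 53.5 dpp testes rest on values of Cdh5 down to 0.0798 FPKM and varied widely.

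**Figure D3:**
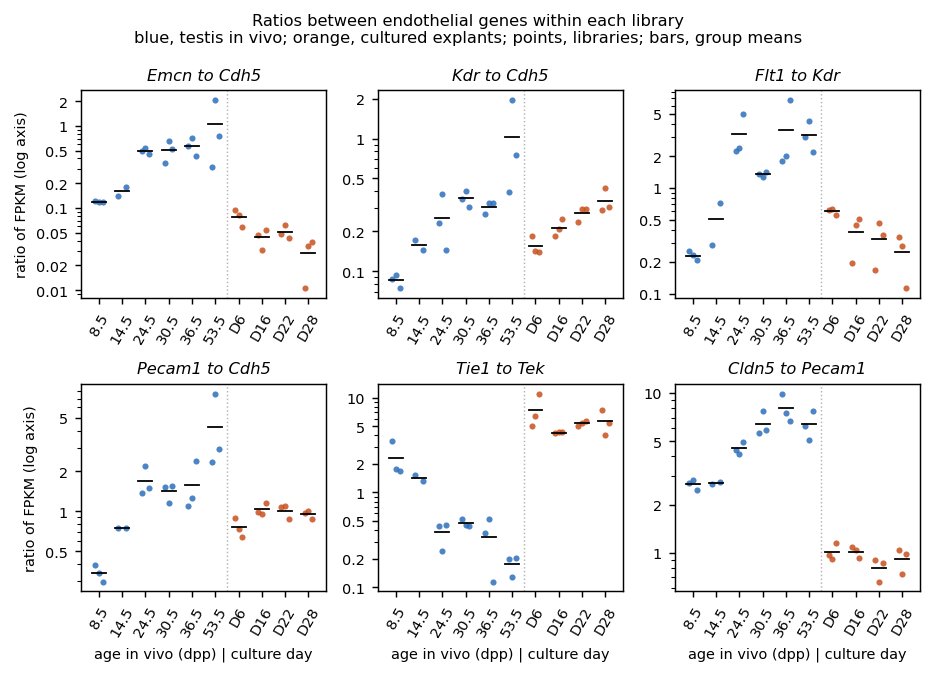
Ratio of FPKM (log axis) between pairs of endothelial genes within each library, by age in vivo (blue, dpp) and culture day (orange); points are libraries and bars group means. Emcn to Cdh5 lies lower in all explants than in all testes, Tie1 to Tek and Cldn5 to Pecam1 also part the explants from the testes, and Kdr to Cdh5 overlaps between them.

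Across the 10 group means, Pecam1 followed the average of the other members most closely (Pearson r = 0.983), and Tek (0.318) and Emcn (0.514) least. Of 12115 genes with a mean of at least 1 FPKM in any group, those with a profile most like the members' average were Niban1 (r = 0.995), Nfe2l2 (0.992), Lama4 (0.992), Lcn12 (0.991) and Plod2 (0.991). Nfe2l2 encodes the oxidative stress factor NRF2, Lama4 a laminin chain of vessel basement membranes and Plod2 a collagen lysyl hydroxylase. Niban1 had 13.2 FPKM at 8.5 dpp, 3.92 at 36.5 dpp and 22.4 at D28. The points are 10 group means, and the likeness carries no test.

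Ligands of the endothelial receptors were followed as a list of 10 genes with co-receptors. Vegfa, the ligand of Kdr and Flt1, had 7.8, 7.26 and 7.12 FPKM at 8.5 dpp and 4.25 and 10.9 at 14.5 dpp, and no more than 7.04 in older testes. In explants it was 33.8, 92.7 and 61.5 at D6, 27.4, 77.1 and 78 at D16, 135, 136 and 88 at D22 and 149, 50.7 and 87.1 at D28. All 12 explants lay above all testes although their own spread was wide, and the gene rose by D6 (log2 fold change 2.81, SE 0.32, adjusted p = 0.000545) and stayed up at D28 against 8.5 dpp (log2 fold change 3.39, SE 0.35, adjusted p = 0.000297). Vegfa and Angpt2 are on the study's own list from these samples as well.

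Pgf, placental growth factor, which binds Flt1 but not Kdr, had 0.551, 0.918 and 0.671 FPKM at 8.5 dpp and was listed at 0 in all 9 testes from 30.5 dpp on. It was 3.7, 3.66 and 3.56 at D6 and 5.06, 1.67 and 2.14 at D28, and rose against 8.5 dpp at both (D6: log2 fold change 1.44, SE 0.10, adjusted p = 6.99e-05). Angpt2, the angiopoietin that antagonises Tek in many settings, had 1.22, 0.658 and 0.685 at 8.5 dpp, 4.1, 3.7 and 3.46 at 24.5 dpp, 4.92, 4.62 and 5.47 at D6 and 6.09, 3.13 and 4.2 at D28, and was higher at D28 than at 8.5 dpp (log2 fold change 1.54, SE 0.22, adjusted p = 0.00119). The agonist Angpt1 and Angpt4 had group means of at most 0.246 FPKM and did not pass the limit on low values in these comparisons.

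Of the lymphatic growth factors, Vegfc was 0.542 FPKM at 8.5 dpp and 1.36 at D28 (log2 fold change 0.58, SE 0.19, adjusted p = 0.0374), a call lost with quantile normalization (0.43, adjusted p = 0.0892), and Vegfd was 0.991 and 1.03 (adjusted p = 0.821). Vegfb had 2.1 at 8.5 dpp and 3.42 at D28 (adjusted p = 0.141). Nrp1, the co-receptor shared by VEGF and semaphorins, had 17.4 FPKM at 8.5 dpp and 14.4 at D28 (adjusted p = 0.138) but 1.53 at 36.5 dpp. Nrp2 was 0.542 at 8.5 dpp and 1.79 at D6 (log2 fold change 0.85, SE 0.11, adjusted p = 0.000769). At D28 against 8.5 dpp, 4 of the 8 genes of this list that were tested were called higher and none lower. Over all genes in that comparison 13.2% were called higher and 10.5% lower, which are the shares beside which each list below stands.

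**Figure D4:**
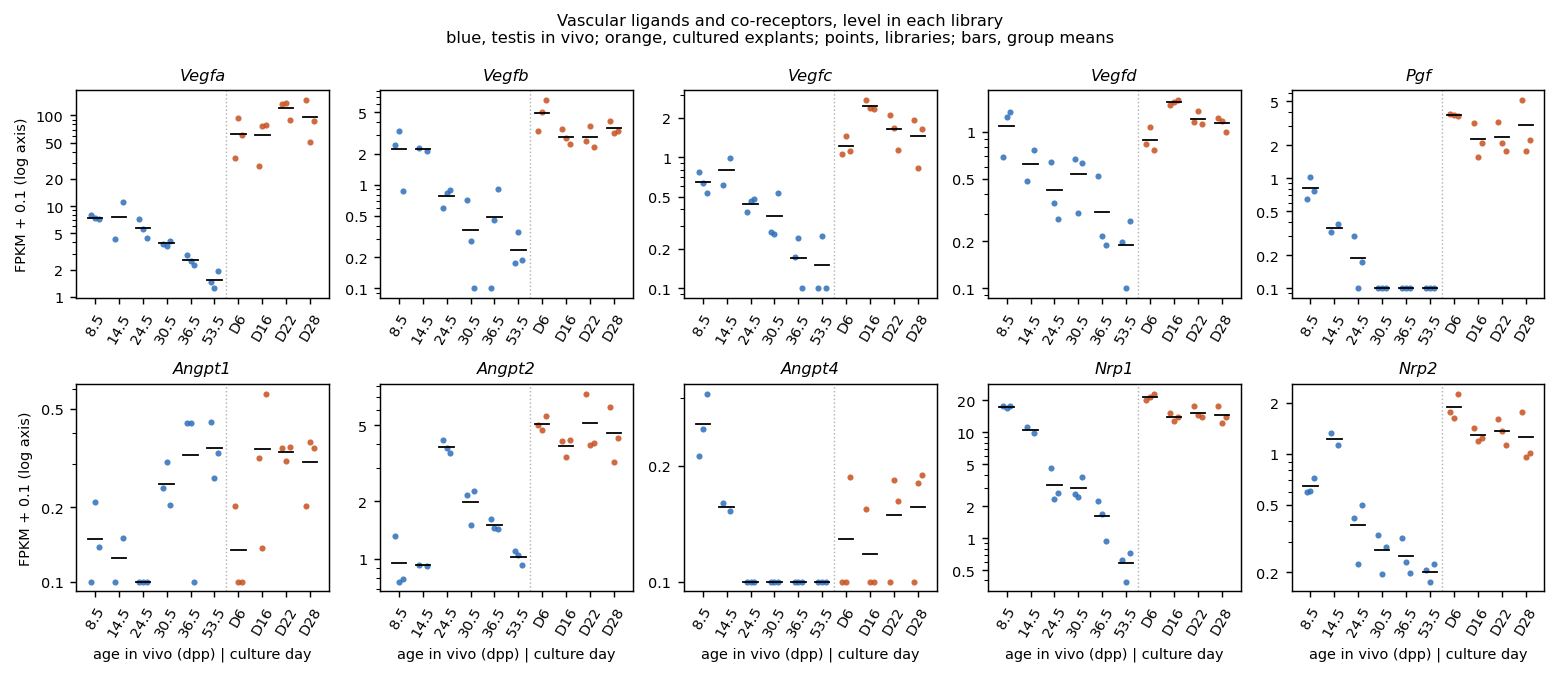
FPKM + 0.1 (log axis) of 10 vascular ligands and co-receptors in each library, by age in vivo (blue, dpp) and culture day (orange); points are libraries, bars group means, and points on the floor are listed at 0. Vegfa and Pgf of all explants lie above all testes, with Vegfa between 27.4 and 149 FPKM in culture and at most 10.9 in vivo.

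Of 12 genes of arterial and tip cells tested, 8 were called higher at D28 against 8.5 dpp and none lower, and 7 at D6, beside 13.2% and 9.89% of all genes called higher, with medians of 1.37 and 1.01 on the log2 scale. Gja4, a connexin of arterial endothelium, went from 11.9, 10.4 and 9.62 FPKM at 8.5 dpp to 57.2, 20.4 and 29.4 at D28 (log2 fold change 1.53, SE 0.34, adjusted p = 0.00826). Cxcr4, a chemokine receptor of tip cells and of many other cells, went from 10.2, 10.1 and 9.29 to 82.9, 44.3 and 55 (log2 fold change 2.46, SE 0.22, adjusted p = 0.000154), and the peptide Apln from 9.21, 7.72 and 6.75 to 26, 34.5 and 23.4 (log2 fold change 1.69, SE 0.17, adjusted p = 0.000281). Dll4 and Esm1, a Notch ligand and a proteoglycan of tip cells, were chosen after their values were seen: Dll4 had 1.74, 0.981 and 1.12 at 8.5 dpp, 11.1, 12.2 and 14.5 at D6 and 14.1, 7.14 and 10.2 at D28, and Esm1 1.23, 0.85 and 1.06, 8.74, 8.37 and 6.97 and 13.5, 14.1 and 8.1. Bmx was called in neither direction, at 2.29 FPKM at 8.5 dpp and 1.77 at D28.

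Of the 5 venous and lymphatic genes tested at D28 against 8.5 dpp, 2 were called higher and 3 lower. Nr2f2, a factor of veins that testicular interstitial cells also express, fell from 73.7, 70.5 and 70.1 FPKM to 46.6, 30.6 and 34.4 (log2 fold change -0.94, SE 0.16, adjusted p = 0.00242). Selp, the P-selectin of activated venules, rose from 0.0828, 0.0663 and 0.106 to 5.12, 4.01 and 5.2 (log2 fold change 2.41, SE 0.11, adjusted p = 1.69e-05), and it was 2.58, 2.39 and 2.87 at 24.5 dpp. The apelin receptor Aplnr, chosen after its values were seen, was 1.04, 1.28 and 1.01 at 8.5 dpp and at most 0.0258 FPKM in every explant, opposite to its ligand Apln. The remaining calls were Flt4, higher, and Lyve1, lower. Prox1 was highest in the oldest testes, at 2.85 FPKM at 53.5 dpp and 0.184 at D28.

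Of a further 23 endothelial genes, 6 were called at D28 against 8.5 dpp, near the 23.6% of all genes called. Among them 4 were called higher (Cd93, Nos3, Plvap and Sox7) and 2 lower (Ramp2 and S1pr1), and against 14.5 dpp 5 were higher and none lower, beside 7.58% and 5.93% of all genes. The 3 most abundant were Cd34, at 89.4 FPKM at 8.5 dpp and 58.5 at D28 (ratio of medians 0.632, not called), the factor Sox18, at 23.7, 53.7 at D6 and 28.1 at D28, and Ramp2, part of the adrenomedullin receptor, at 45.3 and 22.2 (log2 fold change -1.06, SE 0.24, adjusted p = 0.00864). The sphingosine phosphate receptor S1pr1, chosen after its values were seen, went from 19, 20.1 and 19.7 to 5.53, 4.9 and 5.03 in culture and to 4.75 and 2.14 at 14.5 dpp. Tal1, Gpr4, Arhgef15 and Rasip1, seen likewise, did not fall with age: Tal1 was 0.653 FPKM at 8.5 dpp and 21.6 at 36.5 dpp, and Gpr4 0.43 and 10.6. They made up most of the sum of this list at 36.5 dpp, 65.1 (range 59.5 to 68.9) FPKM, where the 10 members summed to 20.8 (range 11 to 26.6).

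Markers of other cells moved with these changes. Of 10 macrophage genes 8 were tested, and 3 were called higher and none lower at D28 against 8.5 dpp. Their summed FPKM was 71.7 (range 65.8 to 75.5) at 8.5 dpp, 43.4 (range 40.7 to 46.1) at 14.5 dpp, 30.4 (range 27.5 to 35.5) at 36.5 dpp, 87.2 (range 77.8 to 97.1) at D6 and 107 (range 82.6 to 152) at D28, led by C1qa, C1qc and C1qb. Macrophages can carry Pecam1 and Cxcr4, and their part in those rises was not tested. Platelets also carry Pecam1. Their genes Pf4, Ppbp and Gp1bb were listed at 0 in all 29 libraries, those of the 8.5 dpp testes included, and Gp9 reached at most 0.193 FPKM, and their part in the rise was not tested. Red cell genes went both ways. Hbb had 448 FPKM at 8.5 dpp, 21.2 at 36.5 dpp and 0.782 at D6, and was listed at 0 from D16 on. Ahsp was 2.24 at 8.5 dpp and 0.297 at D28 (log2 fold change -1.27, SE 0.29, adjusted p = 0.00912). Alas2 was 2.5 at 8.5 dpp, 1.16 at D6 and 6.6 at D28, where it was called higher than at 8.5 dpp (log2 fold change 1.10, SE 0.24, adjusted p = 0.00807).

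Mural cell genes, of the pericytes and smooth muscle around vessels, went both ways. Their summed FPKM was 468 (range 429 to 511) at 8.5 dpp, 256 (range 200.1 to 354) at D6 and 152 (range 134 to 173) at D28, and of 12 tested at D28 against 8.5 dpp 2 were called higher (Abcc9 and Ndufa4l2) and 4 lower (Acta2, Myh11, Des and Cspg4). The sum was carried by Acta2, which peritubular cells also express, at 301 FPKM and 43.8 (log2 fold change -2.79, SE 0.25, adjusted p = 0.000168), Myh11, at 46.3 and 14.5, and Des, at 39.6 and 18.3. Leydig cell genes were far lower in explants, with a sum of 280.4 (range 239 to 339) at 8.5 dpp and 29.5 (range 25.4 to 37.3) at D28 (6 of 7 called lower), with Insl3, Hsd3b1 and Cyp17a1 leading the list. The study reported Insl3, Hsd3b1 and Cyp17a1 as lower in culture from these same samples, so their direction is not independent evidence. Germ cell genes (Tnp1, Prm1 and Ldhc most abundant) summed to 29.6 (range 28.2 to 31.4) at 8.5 dpp, 83.1 (range 56.4 to 124) at D28 and 15140.0 (range 11900.0 to 17550.0) at 53.5 dpp. Sertoli cell genes (Clu, Inha and Cldn11) summed to 1324 (range 1288 to 1388) at 8.5 dpp and 4130.0 (range 3746 to 4532) at D28, and the part of these shifts in the values of the endothelial genes was not tested.

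**Figure D5:**
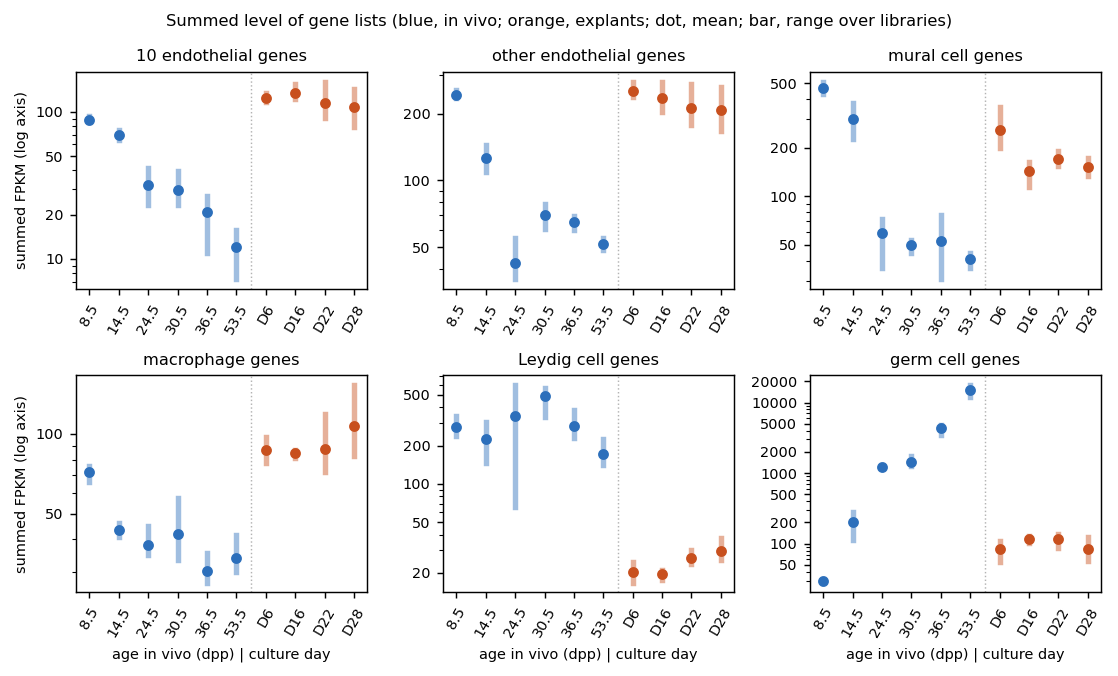
Summed FPKM (log axis) of 6 gene lists by age in vivo (blue, dpp) and culture day (orange); dots are group means and bars the range over libraries. The 10 endothelial genes sum to 107.6 FPKM (range 79.1 to 142.4) at D28 and 20.8 at 36.5 dpp. Their sum in the 8.5 dpp testes, 88.55 (range 84.7 to 93.6), lies within the range of D28. Cdh5, Pecam1 and Cldn5 lead the sum at D28. The sums of mural and of Leydig cell genes lie lower in explants than in the 8.5 dpp testes. The mural sum is carried by Acta2, Myh11 and Des, and single mural genes went both ways.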

How the data were processed

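RNA was measured by poly(A) RNA-seq with 50 bp single reads. Per the labels and the study's methods, the authors aligned reads with STAR 2.5.2a to the rat genome build rn6 and quantified RefSeq genes with StringTie and Ballgown, and they deposited 1 FPKM value per gene and library, scaled to transcript length and mapped reads. FPKM hold no read numbers, so depth is unknown and precision rests on 2 or 3 libraries per group. Per the study, RNA sets within a group were independent, from different testes in vivo and from explants of at least 3 males per cultured library. Separate culture runs are not named for them. The p-values measure the spread between these libraries, part of which may be technical.

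Identifiers were matched to symbols with a RefSeq table (17172 of 17322 matched). Besides the members, 109 of 118 genes of 11 further lists were found. FPKM were transformed to log2(FPKM + 1), which understates changes of low genes. The fit, restricted to genes whose median reached 0.5 FPKM in a compared group, was made with limma 3.58.1 in R 4.3.3, and p-values were adjusted over all genes tested by Benjamini-Hochberg. Genes were called at an adjusted p up to 0.05 where the medians of the groups also differed 2-fold or more. D16, D22 and D28 against 14.5 dpp were fitted together, with an F test at the same limit. The test of the culture course against the in vivo course used the adjusted p alone. Fits were tested on simulated data. Alternatives changed the pseudocount, filter, normalization, prior variance, groups in the fit, block and fold limit, and left out each library in turn. Leaving out the first libraries of D22 and D28 together was added after the data were seen.

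Members and lists were chosen with earlier results of these data known. Named were all members and ligands, the 3 most abundant genes of each other list and the 5 genes with the most similar profile. Other genes are marked in the text or are the members of a count. Promoter windows are from RefSeq GRCr8, whose coordinates differ from those of rn6. Ratios, profiles, level sums and motifs carry no test. Figures were drawn with matplotlib 3.10.9.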

Additional observations from a re-analysis of the deposited data

Results flagged for a closer look

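The change from D6 to D28 in culture differed from the change from 14.5 to 36.5 dpp in vivo for 6 of the 10 endothelial genes, by a limma test of the difference itself (adjusted p at most 0.05, 3 libraries per group but 2 at 14.5 dpp). All 6 differences were positive, which is what called higher means here, and this is not by itself a rise in culture. Of all genes tested 76.5% were called and 50.9% were called higher, so the share of members is below or near that of all genes and is no result about them. The log2 difference, culture minus in vivo, was 2.38 for Cdh5, 2.08 for Pecam1, 1.80 for Kdr, 1.40 for Tie1, 1.09 for Egfl7 and 0.51 for Tek. Under all 19 alternatives run, Cdh5 lay between 1.87 and 3.23, Pecam1 between 1.57 and 2.66, Kdr between 1.29 and 3.12 and Tie1 between 0.89 and 2.54, each with an adjusted p of at most 0.0451. Tek was called under 10 of the 19 and Egfl7 under 14. With libraries centred on their median the called members were 4 higher and 2 lower, Flt1 (-0.89) and Emcn (-0.72).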

How the results depend on the processing

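Of 4269 values of single genes under alternatives, 3961 stayed on their side of the threshold, 264 lost and 25 gained a call, and 19 changed direction, none of them called. The cause of these shifts was not tested. With libraries centred on their median, Tek was 0.027 at D22 against 14.5 dpp, -0.20 against 30.5 dpp and -0.38 at D28 against 36.5 dpp on the log2 scale. The last of these had an adjusted p of 0.0141 and missed the fold limit. Emcn was -0.012 at D22 against 30.5 dpp and -0.47 at D28 against 36.5 dpp. With quantile normalization, Tek was -0.093 and -0.20 and Emcn -0.089 at D28. Centring moved the median of all genes by -0.313 at D22 against 30.5 dpp, -0.475 at D28 against 36.5 dpp and by 0.350, 0.174 and 0.327 in the last 3 in vivo steps. From 36.5 to 53.5 dpp it turned the calls over all genes from 318 higher and 549 lower to 350 and 123, from D16 to D28 from 14 and 10 to 24 and 11, and for the courses from 6356 and 3188 to 4574 and 4221.

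Over 42 pairs of libraries with the same replicate number, the correlation of deviations ran from -0.126 to 0.104. In 20 of them the same number was the best match, with 2 or 3 libraries to choose from. Whether replicate numbers pair the libraries was not tested. A replicate block called 3 members instead of 6 at D6 against 14.5 dpp (376 instead of 898 genes in all), lost Emcn at D28 against 14.5 dpp (-0.97, adjusted p = 0.0125, without passing the F test) and from 14.5 to 24.5 dpp (-0.63, adjusted p = 0.0683), called Esam at D16 against 14.5 dpp (1.36, adjusted p = 0.00873), and took Tek to 0.013 at D22 against 14.5 dpp. From D16 to D28 all 10 groups in 1 fit called 112 genes and the block 6, instead of 24, and without single libraries the count ran from 13 to 57. From 36.5 to 53.5 dpp quantile normalization called 497 and centring 473, instead of 867. Without single libraries the count over all genes was 8 to 60 in 4 fits from 30.5 to 36.5 dpp (846 in the full fit), 2585 without the first testis from 14.5 to 24.5 dpp (4131), 406 to 564 without a D6 library at D6 against 14.5 dpp, and 243 without the second D16 library from D6 to D16 (368). Without the fold limit, D6, D16, D22 and D28 against 14.5 dpp had 1755, 3177, 3437 and 3562 called genes (898, 1342, 1448 and 1556 with it), the comparisons of D6, D28 and 14.5 dpp with 8.5 dpp 5319, 5985 and 4704 (1826, 2681 and 1769), D16 against 24.5 dpp 8445 (5082), the step from D6 to D16 1927 (368), and the last 3 in vivo steps 7887, 3252 and 5124 (4479, 846 and 867). With the adjusted p alone 2 members were called from D6 to D16 and 2 from 8.5 to 14.5 dpp, and with all 10 groups in 1 fit 1 from 36.5 to 53.5 dpp.

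Leaving out 1 library gave from 1 to 4 called members at D16 and at D22 and from 1 to 5 at D28 against 14.5 dpp, from 0 to 1 between D6 and D16, from 0 to 2 in the step to 14.5 dpp and in the step to 30.5 dpp, from 2 to 7 in the step to 24.5 dpp, and from 0 to 4 in the last. Where it left a single 14.5 dpp testis, that testis was assumed to vary like the other groups. The counts at D28 against 14.5 dpp without the second testis, and from 14.5 to 24.5 dpp without the first, were the lowest. Over these fits Tek ran from -0.26 to 0.074 at D22 against 14.5 dpp, from -0.046 to 0.23 at D16 against 24.5 dpp, from -0.10 to 0.24 at D22 against 30.5 dpp and from -0.12 to 0.065 at D6 against 8.5 dpp, Cldn5 from -0.24 to 0.035 at D6 against 14.5 dpp, and Emcn from -0.24 to 0.16 at D28 against 36.5 dpp. Depth is unknown, so values under about 1 FPKM cannot be given a counting error.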
